A study of Mus musculus with 16 samples.

Results

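The comparison concerned lung endothelial cells of mice bearing metastases (d36) against those of mice whose primary tumour had been resected (d22). Its members were the cells whose names start with d36 or d22 in the deposited count table and that passed a filter on cell quality and on markers of other cell types. There were 1580 such cells at d36 and 3183 at d22, 4763 of the 8881 filtered cells of all 4 days. All mice were female C57BL/6N. The labels state that Lewis Lung Carcinoma (LLC) cells, a mouse lung tumour line, were placed under the skin, and that the lungs were taken from wild-type mice (d0), mice with a primary tumour (d15), mice after resection (d22) and mice with metastases (d36). They name no other allele or agent, give no age, and do not say whether the d36 mice had undergone resection. Endothelial cells were isolated by flow sorting and processed with a 10x Genomics Chromium 3′ kit, which counts transcripts by unique molecular identifiers (UMIs). The labels list 4 libraries per day, but the cell names carry only the day, so each day was 1 pooled sample. No difference has a replicate check and no p-value was computed. All intervals are 95% intervals for counting error only, and understate the error of a gene carried by a small number of cells.

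Depth per cell differed across the step. The UMIs totalled 27584868 at d22 and 6707658 at d36, with medians of 7671 and 3410.5 UMIs and of 1336 and 718 genes per cell. The other days formed a like pair, with a median of 7654 UMIs at d0 and 4196 at d15. The median mitochondrial share per cell was 1.61% at d22 and 2.86% at d36. All 12 pan-endothelial markers were present at both days, with summed levels of 20918 and 20031 counts per 10⁶ UMIs (CPM). Markers of other cell types summed to at most 190 CPM at either day (the epithelial list), leukocyte markers to 28.2 CPM at d22 and 31.5 CPM at d36, and B cell markers to 47.2 and 39.8 CPM. The cells had been filtered on these same lists and on a pan-endothelial UMI, so all these sums are partly set by the filter. Of 11 T and NK cell markers, 3 had UMIs at d22 and 4 at d36, with sums of 1.52 and 4.03 CPM. Of 12 macrophage markers, 7 had UMIs at d22 and 6 at d36, with sums of 70.5 and 68.7 CPM. Only 1 cell barcode was shared between d22 and d36.

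Lung capillaries hold general capillary cells and aerocytes, the thin, wide cells that face the alveoli and carry Car4 and Ednrb. General capillary cells can express MHC class II molecules, which present peptides from outside the cell to CD4 T cells. The class II chains H2-Aa, H2-Ab1 and H2-Eb1 are assembled with the invariant chain Cd74, and the H2-DM proteins load them with peptide. Their genes share a promoter architecture whose Y box, the letters ATTGG, lies close to the transcription start and is bound by the factor NF-Y, while the coactivator Ciita switches the group on.

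MHC class II genes gave the largest group difference of the step, so the promoters of 3 of them are shown. RefSeq's promoter table (build GRCm38.p6) held entries for H2-Aa, H2-Eb1, H2-DMb1 and H2-DMa and none for Cd74 and H2-Ab1. Each run gives the 200 bases before the transcription start, 5′ to 3′ on the gene's own strand, and capitals mark ATTGG, or CCAAT where the match lies on the other strand. H2-Aa lies at chr17:34287824-34288023 (minus strand), H2-Eb1 at chr17:34305667-34305866 (plus strand) and H2-DMb1 at chr17:34152991-34153190 (plus strand).
H2-Aa: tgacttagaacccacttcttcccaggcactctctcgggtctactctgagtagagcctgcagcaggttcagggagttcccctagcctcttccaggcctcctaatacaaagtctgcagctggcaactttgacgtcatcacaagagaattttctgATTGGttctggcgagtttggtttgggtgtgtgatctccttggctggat
H2-Eb1: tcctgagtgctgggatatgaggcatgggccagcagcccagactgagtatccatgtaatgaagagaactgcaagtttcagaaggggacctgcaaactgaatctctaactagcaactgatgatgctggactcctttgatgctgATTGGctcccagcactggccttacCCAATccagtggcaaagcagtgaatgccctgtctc
H2-DMb1: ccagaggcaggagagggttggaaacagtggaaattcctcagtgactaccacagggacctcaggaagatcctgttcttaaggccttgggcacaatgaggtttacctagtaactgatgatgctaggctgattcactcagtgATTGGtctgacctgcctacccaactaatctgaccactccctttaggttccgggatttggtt
The ATTGG match began at base -48 in H2-Aa, -59 in H2-Eb1 and -61 in H2-DMb1, counted back from the start. H2-DMa had no match before one of its annotated starts and a match at -198 before the other. On either strand, 29.4% of the 32843 promoters in the table hold ATTGG in such a window, so a match alone is common.

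Cells after resection carried the most MHC class II RNA of the 4 days, and cells of metastasis-bearing lungs carried less. The level of Cd74 was 992, 310, 2282 and 447 CPM at d0, d15, d22 and d36. Its ratio of d36 to d22 was 0.196 (0.189 to 0.203), the lowest of all measured genes. When each cell of at least 2000 UMIs was thinned at random to 2000 UMIs, so that all cells had equal weight, the ratio was 0.165.

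The class II chains moved in the same way as Cd74. H2-Aa stood at 375, 223, 717 and 271 CPM at d0, d15, d22 and d36, a ratio of d36 to d22 of 0.378 (0.361 to 0.397). H2-Ab1 stood at 506, 378, 932 and 464 CPM, a ratio of 0.498 (0.479 to 0.517). H2-Eb1 stood at 200, 126, 397 and 153 CPM, a ratio of 0.385 (0.360 to 0.410). For each chain d22 was the highest day and d15 the lowest. The peptide-loading genes followed, with H2-DMa at 78.6, 48, 153 and 69.0 CPM and H2-DMb1 at 101, 60.5, 178 and 68.3 CPM, ratios of 0.452 and 0.383. Ciita was too low to be measured well, at 7.94 CPM at d22 and 5.96 CPM at d36 (ratio 0.751, 0.522 to 1.06).

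**Figure D1:**
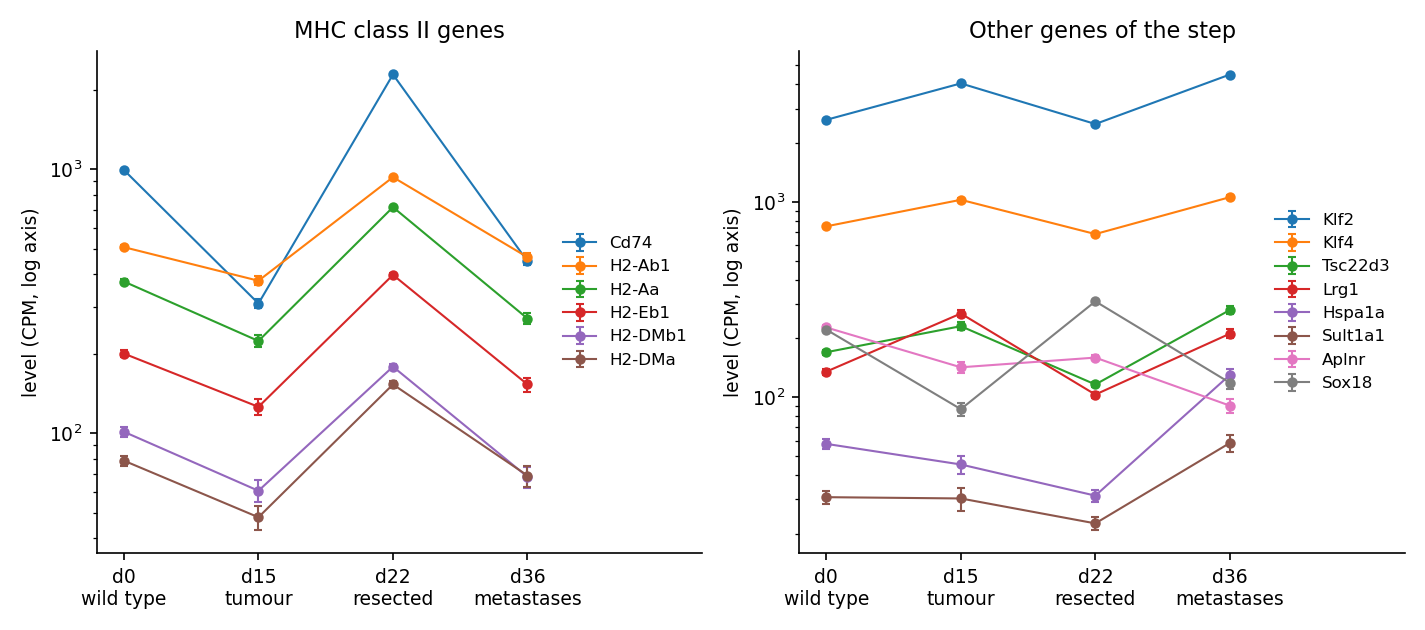
Levels in CPM (log axis) at each day for the 6 MHC class II genes (left) and for 8 other genes of the step (right), 1 pooled sample per day. Bars are approximate 95% intervals (normal approximation) that cover counting error only, and lines only join a gene's points. All 6 class II genes peak at d22, Cd74 at 2282 CPM, while Hspa1a, Sult1a1 and Tsc22d3 are lowest at d22 and highest at d36.

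A gene was called higher or lower across the step by a rule of size: at least 50 CPM in either day and 200 UMIs over both, a 1.5-fold difference or more, up or down, whose interval did not hold 1. Of 3631 measured genes, 210 were higher at d36 (5.78%) and 89 lower (2.45%). All 6 class II genes that could be measured, of 11 listed, were among the lower genes. Their median log2 ratio was -1.37, and -1.52 with thinned cells, against -0.01 over all 8289 genes with at least 10 CPM in either day. Exactly 6 measured genes (0.165%) were at least 1.5-fold higher at d22 than at each of the other 3 days, and they were these 6. Of the 8289 genes, 3985 lay above 1 and 4304 below, and the counts of list members that follow stand beside that split.

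MHC class I genes, which present peptides from inside the cell, differed in the same direction but by less. All 18 listed genes of class I and its peptide loading with at least 10 CPM lay below 1, with a median log2 ratio of -0.29. H2-K1 had 2953 CPM at d22 and 2230 at d36 (ratio 0.755), and B2m, the light chain shared by class I molecules, had 9699 and 6684 CPM (0.689). Only H2-Q6 (0.649) and H2-T23 (0.656) met the size rule, and H2-T23 did not with thinned cells (0.679).

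Interferon response genes did not follow the MHC genes past the size rule. Of 22 such genes with at least 10 CPM, 7 lay above 1 and 15 below, with a median of -0.07, and 0 of the 15 that were measured met the rule. Bst2, a membrane protein that tethers virus particles, had the lowest ratio among the measured at 0.755, and the transcription factor Stat2 had 1.46. Of 14 interferon-induced GTPases with at least 10 CPM, 9 lay below 1 and 0 of the 9 measured met the rule, among them Igtp at 0.994 and Gbp3 at 0.764. Thinned cells put Gbp3 at 0.558, past the rule.

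In the shear-responsive KLF list, Klf2, Klf4 and Klf10 were higher at d36, Klf2 among the most abundant of all higher genes. Klf2, a transcription factor induced by laminar flow, stood at 2630, 4042, 2504 and 4486 CPM at the 4 days in order. Its ratio of d36 to d22 was 1.79 (1.77 to 1.82), and 1.85 with thinned cells. Klf4, a related factor, stood at 749, 1025, 684 and 1057 CPM, a ratio of 1.55. Klf10, an early TGF-β-induced member, stood at 88.4, 166, 70.5 and 159 CPM, a ratio of 2.25. For these factors the levels of d15 and d36 were both above those of d0 and d22.

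The rest of that list did not move with them. Of 19 listed KLF factors and flow-related genes, 11 lay above 1 and 8 below, with a median of 0.08, and 3 of 14 measured met the size rule. Thbd, the anticoagulant receptor thrombomodulin and a known KLF2 target, had a ratio of 0.871 (582 to 507 CPM). Nos3, the endothelial nitric oxide synthase, had 14.8 and 18 CPM. The letters CACCC, a core motif of KLF binding sites, stood once in the 200 bases before the Klf2 start, on the other strand at -19, and not before that of Klf4. They occur in 45.5% of all promoters in the table.

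Endothelial transcription factors split. Foxf1, a forkhead factor of lung mesenchyme and endothelium, stood at 861, 1544, 887 and 1607 CPM at d0, d15, d22 and d36, a ratio of d36 to d22 of 1.81 (1.77 to 1.85). The ETS factor Fli1 had 54.2 CPM at d22 and 92.6 at d36 (1.71). Sox18, a SoxF factor of vessel and lymphatic development, went the other way, at 222, 86.8, 309 and 119 CPM, a ratio of 0.383 (0.356 to 0.412). The other SoxF genes lay above 1, Sox17 at 1.24 and Sox7 at 1.37, and neither met the size rule. Over the 21 SoxF, ETS, GATA and related factors the median was 0.16, with 2 of 16 measured called higher and 1 lower.

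Both apelin genes were lower at d36. Aplnr, the apelin receptor of general capillary cells, stood at 228, 142, 159 and 90.5 CPM at d0, d15, d22 and d36, a ratio of 0.567 (0.520 to 0.618), and 0.507 with thinned cells. Its ligand Apln, an aerocyte marker, stood at 122, 66.0, 121 and 57.4 CPM, a ratio of 0.476 (0.428 to 0.529). With thinned cells the ratio of Apln was 0.729 and it no longer met the size rule. Other tip cell and angiogenesis genes differed little. Of 20 with at least 10 CPM 7 lay above 1, and 0 of the 16 measured were called higher and 3 lower, Apln, Aplnr and the sialomucin Cd34 (0.612, and 0.729 thinned). Esm1 had 60.4 CPM at d22 and 49.3 at d36. The VEGF receptors Kdr (0.798) and Flt1 (1.10) and the co-receptor Nrp1 (0.738) did not meet the rule.

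Aerocyte genes were lower with all UMIs, and the depth of aerocytes moved with them. Car4, the membrane carbonic anhydrase of aerocytes, had 1819 CPM at d22 and 1169 at d36 (0.643, and 0.778 thinned). Cdkn2b, a cyclin-dependent kinase inhibitor that led the aerocyte-like cells here, had 131 and 49.6 CPM (0.379, and 0.530 thinned). Tmeff2, which also led them, had 105 and 50.1 CPM (0.477, and 0.649 thinned). Ednrb, the endothelin receptor B, was 232 and 163 CPM (0.703) with all UMIs and level (1.01) with thinned cells. The 12 aerocyte markers summed to 4994 CPM at d22 and 3333 at d36. The cluster these genes led, described below, held 17.4% of cells at d22 and 16.1% at d36, but 26.4% and 18.2% of the clustered cells' UMIs, with medians of 13317 and 3326 UMIs per cell. The part of this depth gap in the ratios over all cells was not tested beyond the thinned values given here.

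A lymphatic chemokine and a pair of scavenging receptors were lower. Ccl21a, the chemokine of lymphatic endothelium that guides dendritic cells, stood at 466, 532, 262 and 71.4 CPM at d0, d15, d22 and d36, a ratio of 0.272 (0.248 to 0.299). Cells with UMIs of at least 2 of the lymphatic markers Mmrn1, Prox1, Reln, Nts and Flt4 numbered 16 at d22 and 1 at d36, and held 4415 of the 7231 and 265 of the 479 Ccl21a UMIs. Without them Ccl21a had 103 CPM at d22 and 31.9 CPM at d36. Cells at d36 held fewer UMIs, so that 2 markers are less readily found in them. In a pooled sum, fewer cells of a type and less RNA per cell cannot be told apart. The Ccl21a symbol also has near-identical copies in the mouse genome, so its counts are uncertain.

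The atypical chemokine receptors Ackr3 and Ackr4, which remove chemokines from tissue, had 76.3 and 112 CPM at d22 and 38.8 and 45.5 CPM at d36. Their ratios were 0.508 (0.445 to 0.578) and 0.406 (0.360 to 0.457). Cxcl12, a chemokine bound by Ackr3, was near level (390 and 407 CPM). Of 10 listed chemokines and scavenging receptors with at least 10 CPM, 3 lay above 1, and 2 of the 8 measured were called lower. Among leukocyte adhesion genes only Cd34 met the rule, while Vcam1 had 0.819, Icam1 0.891 and Icam2 0.741.

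Among matrix genes of larger vessels Fbln5 and Bgn were lower. Fbln5, an elastic fibre protein, stood at 65.5, 64.7, 64.2 and 28.9 CPM at d0, d15, d22 and d36, so that d36 alone was low (0.450, 0.386 to 0.523). Bgn, a small proteoglycan, stood at 79.0, 67.0, 60.4 and 39.4 CPM (0.652). Of 16 elastic fibre and vessel matrix genes 6 lay above 1, with a median of -0.14, and 2 of 13 measured were called lower and 0 higher. Basement membrane genes lay the other way, 10 of 11 above 1 with a median of 0.16, but only the secreted glycoprotein Sparcl1 met the rule, at 113 and 215 CPM (1.90). Col4a1 had 1.17 and Col4a2 1.04. Cav2, the caveolin-1 partner of caveolae, had 1144, 475, 786 and 450 CPM at the 4 days (0.572, 0.551 to 0.595), while Cav1 was level (0.965). Vim, the intermediate filament protein vimentin, had 1812 CPM at d22 and 1088 at d36 (0.601). Vim was named after its value was seen.

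Stress and hormone-induced genes held some of the highest ratios. Hspa1a, the inducible cytosolic HSP70, stood at 57.7, 45.2, 31.3 and 130 CPM at d0, d15, d22 and d36, the highest ratio among the genes named by rule (4.15, 3.77 to 4.57, and 3.55 thinned). Its 864 UMIs at d22 lay in 183 cells and its 872 UMIs at d36 in 132 cells. Hspa8, the constitutive HSP70, stood at 1670, 2221, 1341 and 2216 CPM (1.65), and the co-chaperone Chordc1 had 36.3 and 56.5 CPM at d22 and d36 (1.56). These 3 were the only called genes of 13 measured heat shock genes. Hsp90aa1 (0.967) and Hspb1 (0.894) lay below 1, and 9 of the 15 with at least 10 CPM above it. Chaperones of the endoplasmic reticulum lay mostly below 1, 15 of 21 of them, with Hsp90b1 at 0.681 and Calr at 0.688, and 0 of 16 measured met the rule.

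Tsc22d3, a glucocorticoid-induced leucine zipper protein, stood at 170, 231, 116 and 280 CPM at d0, d15, d22 and d36, a ratio of 2.41 (2.27 to 2.55). Sult1a1, a phenol sulfotransferase induced by glucocorticoids, stood at 30.8, 30.3, 22.6 and 58.3 CPM, so that d36 alone was high, a ratio of 2.58 (2.27 to 2.93). Dusp1, a MAP kinase phosphatase that glucocorticoids and early signals induce, had 883 CPM at d22 and 1381 at d36 (1.56). Per1, a clock gene with glucocorticoid response elements, was low at 3.73 and 13.4 CPM, and Fkbp5, another classical target, had 1.56 and 2.39 CPM with an interval that held 1 (0.805 to 2.77). Of 13 such genes with at least 10 CPM in either day, 9 lay above 1 with a median of 0.20. Mt2, a metallothionein on that list, had 9 UMIs in 6 cells at d22 and 81 UMIs in 12 cells at d36.

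Early response genes were mixed. Dusp6, a phosphatase that limits ERK signalling, stood at 124, 238, 104 and 214 CPM at d0, d15, d22 and d36 (2.05, 1.92 to 2.19), and the immediate early factor Csrnp1 had 55.0 and 96.5 CPM at d22 and d36 (1.76). Fos (0.865), Egr1 (0.847) and Atf3 (0.873) lay below 1 and Jun at 1.09. With Dusp1, 3 of 19 measured members met the rule, all higher. Cdkn1a, the cell cycle inhibitor p21, stood at 495, 617, 378 and 722 CPM, a ratio of 1.91 (1.85 to 1.98), and Gadd45g had 144 and 222 CPM (1.55). Other p53 targets such as Bax (1.01), Ccng1 (1.22) and Phlda3 (0.802) did not meet the rule, and the list's median was -0.01.

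Genes of the Notch pathway lay mostly above 1. Of 13 with at least 10 CPM, 10 lay above 1, with a median of 0.41, and 0.38 with thinned cells. Among all genes of that level, 3985 of 8289 lay above 1. The ligand Dll1 stood at 54.6, 97.7, 32.3 and 60.2 CPM at d0, d15, d22 and d36 (1.86, 1.65 to 2.1), and was the only 1 of 9 measured members to meet the rule. The ligand Jag1 was low, at 11.2 CPM at d22 and 29.8 CPM at d36 (2.66, 2.22 to 3.19), while the tip cell ligand Dll4 was level (0.995). The target genes Hey1 (1.46), Nrarp (1.36) and Hes1 (1.33) and the receptor Notch1 (1.30) lay above 1 below the rule's size.

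In the STAT3 and IL-6 group, 12 of 15 genes lay above 1, with a median of 0.33. Lrg1, a secreted glycoprotein that modifies TGF-β signalling in vessels, stood at 135, 268, 103 and 211 CPM at d0, d15, d22 and d36. Its ratio was 2.05 (1.92 to 2.19), and 2.27 with thinned cells, so that d15 and d36 were both above d0 and d22. It was the only called gene of 10 measured, with Stat3 at 1.27 and Socs3, its feedback inhibitor, at 1.04. Cebpb had 57 UMIs at d22 and 151 at d36 (2.07 and 22.5 CPM), under the rule's minimum level.

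BMP and TGF-β genes lay above 1 in 17 of 24 cases, with a median of 0.15. Skil, a repressor of SMAD signalling, had 62.1 CPM at d22 and 105 at d36 (1.69), and the BMP effector Smad1 had 45.5 and 69.8 CPM (1.53, and 1.49 thinned). The inhibitor Smad6 had 1.37, the receptor Bmpr2 1.48, and the receptors Acvrl1 (0.936) and Eng (1.05) were near 1. Among coagulation genes Plat, tissue plasminogen activator, stood at 91.3, 158, 88.4 and 136 CPM at d0, d15, d22 and d36 (1.54, 1.42 to 1.66), and was the only called gene of 10 measured. Vwf had 1.22 and Pros1, the anticoagulant protein S, 0.732. Npr3, a clearance receptor for natriuretic peptides, had 89.3 and 144 CPM at d22 and d36 (1.61).

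Mitochondrially encoded transcripts lay mostly above 1, 10 of 13 of them, with a median of 0.55 and 0.46 with thinned cells. The 5 called among 11 measured were mt-Co3 (2916 to 5248 CPM), mt-Cytb, mt-Co1, mt-Nd4 and mt-Atp6, while mt-Co2 lay at 0.910 and mt-Nd2 at 0.872. The median mitochondrial share per cell, given above, counts the same UMIs, so it is not a separate reading of this difference. The cause was not tested. Nuclear-encoded genes of oxidative phosphorylation did not follow, with 26 of 77 above 1 and a median of -0.11. Of these only Atp5k (2) and Ndufa3 (1.71) met the rule. Cytosolic ribosomal protein genes had 24 of 83 above 1 and a median of -0.08, yet 8 short or copy-rich members met the rule as higher, among them Rpl6l (2.40) and Rps28 (1.97). Because their reads can be split among near-identical copies these values are uncertain. Malat1, a nuclear RNA, was level over all cells, at 51618 and 51813 CPM (0.936 with thinned cells). Within the 10 clusters described below its ratio ran from 0.821 to 1.68, below 1 in 7 and above 1 in 3.

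Fabp4, a fatty acid-binding protein, had 54.7 CPM at d22 and 92.7 CPM at d36 (1.69, and 2.83 thinned). It was 186 CPM at d15. Most of its UMIs lay in a small cluster of cells, described below. Sterol synthesis, integrin, junction and hypoxia genes showed few calls. Of the 15 measured hypoxia and glycolysis genes only Ankrd37, a HIF target, met the rule, at 28.2 and 66.2 CPM (2.35), while Vegfa had 1.21 and Ldha 1.33. The aryl hydrocarbon receptor target Cyp1a1, at 1207 CPM at d0 and 34.9 CPM at d15, was about the same at d22 and d36 (57.3 and 51.3 CPM, ratio 0.895, 0.794 to 1.01).

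The highest ratios by the naming rule also held genes of little known vessel function, and part of them are uncertain. After Hspa1a came Ly6c2 (14.9 to 59.3 CPM, 3.99), a close paralog of the abundant Ly6c1, Wdr89 (3.43), the histone methyltransferase Kmt2d (2.62), Mto1 (2.55), Psme2b, a near-copy of the proteasome activator gene Psme2 (2.53), Wdr12 (2.36), Marf1 (2.35) and Usp50 (2.31). Of the 210 higher genes, 55 were pseudogenes, predicted genes or ribosomal protein genes, against 3 of the 89 lower genes. At d36, 12 genes (0.33%) were at least 1.5-fold above each of the other 3 days, 5 of them of that kind, and the rest were Hspa1a, Sult1a1, Ankrd37, Wdr89, Usp50, Upf2 and Atp5k. As many (0.33%) were below each other day, Ackr3, Aplnr, Bgn, Ccl21a, Fbln5, Dpp4, Cytl1, Cmtm6, Smpd1, Slco3a1, St6galnac4 and Anapc10. Of these Dpp4, a membrane peptidase of capillary cells, stood at 147, 127, 138 and 82.7 CPM at d0, d15, d22 and d36. At d22, 9 genes (0.248%) were below each other day, 5 of them pseudogenes, predicted genes or ribosomal protein genes. The rest were Camk2n1, the noradrenaline transporter Slc6a2 of venous cells (37.3 CPM at d22), Npr3 and Dll1.

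Most calls remained when cells were thinned to the same depth. Random thinning leaves each gene's expected share within a cell unchanged. It therefore moves ratios mainly through the weight of each cell and through the cells left out. Whether depth itself produced the calls was not tested by it. With cells thinned to 2000 UMIs, which left out 387 cells at d36 and 0 at d22, 169 genes (4.77% of those measured both ways) were called higher with both readings and 58 (1.64%) lower. Calls made with all UMIs but not thinned included Apln, Car4, Cd34, H2-T23 and Smad1, whose thinned values stand above.

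**Figure D2:**
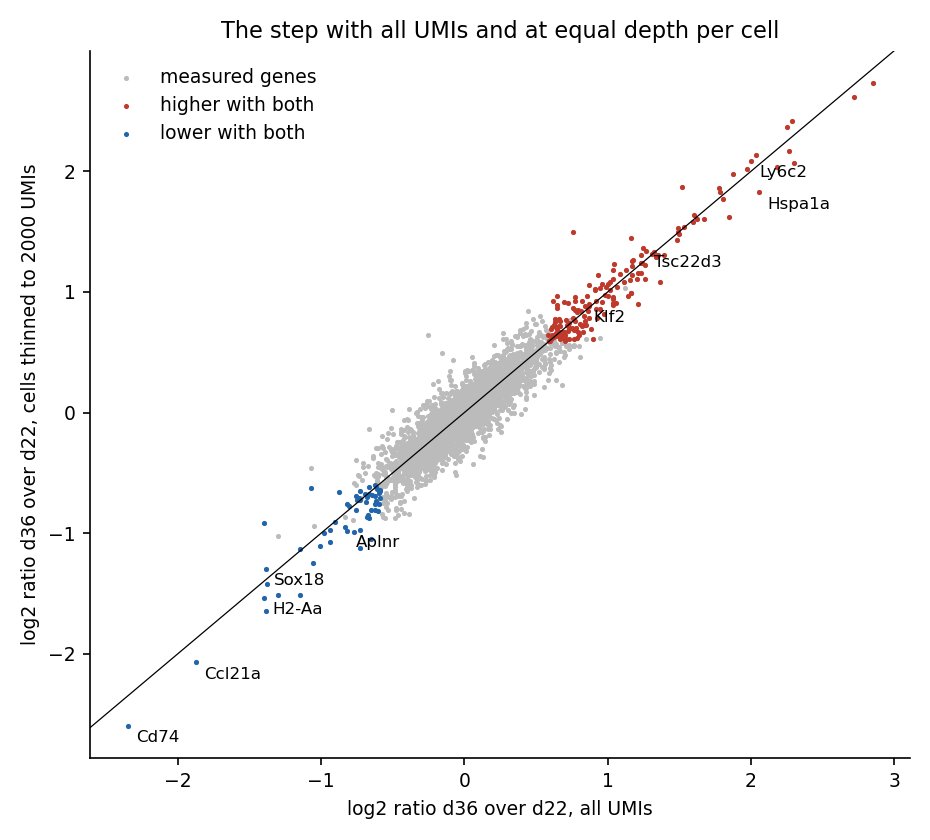
Log2 ratio of d36 to d22 with all UMIs (x axis) and with each cell thinned to 2000 UMIs (y axis), 1 point per measured gene, with genes called higher in both in red (169) and lower in both in blue (58); the line is equality. Cd74, Ccl21a, H2-Aa and Sox18 stay at the low end and Ly6c2 and Hspa1a at the high end.

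The days d15 and d0 share no cells with this step, and they too set a shallower day against a deeper one. By the same rule 155 genes (4.17%) were higher at d15 than at d0 and 85 (2.29%) lower. Of the 191 genes higher at d36 that were measured in the other pair, 82 were also higher at d15, which is 42.9% of these and 63.6% of the 129 genes higher at d15 that were measured in both pairs. Over all genes measured in both, 3.65% were higher at d15. Of the 83 lower genes, 25 were also lower at d15 (30.1% of these and 36.8% of the other pair's), against 1.93% of all. Pseudogenes, predicted genes or ribosomal protein genes made up 32 of the 82 shared higher genes and 1 of the 25 shared lower genes. The median d15 to d0 ratio was 1.44 over the higher and 0.764 over the lower genes, and 1.00 over all. List medians of log2 from d0 to d15 were 0.445 for Notch, 0.615 for STAT3 and IL-6, and 0.335 for BMP and TGF-β genes. The values from d22 to d36 were 0.410, 0.330 and 0.149. MHC class II genes had -0.717 from d0 to d15 and -1.37 from d22 to d36, and mitochondrially encoded genes 0.07 and 0.55. Over all genes the values were 0.02 and -0.01. Presence of a tumour and shallower libraries go together in both pairs and cannot be told apart here.

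Among the genes that followed both pairs were Klf2 (1.54 from d0 to d15), Foxf1 (1.79), Lrg1 (1.98), Dusp6 (1.92), Sox18 (0.392), Cav2 (0.415) and the class II genes, with Cd74 at 0.312 and H2-Ab1 at 0.746. Others had different values in the 2 pairs, and the difference between pairs was not tested. From d0 to d15, Sult1a1 had 0.985 (0.840 to 1.15) and Fbln5 0.988 (0.887 to 1.10), with intervals that held 1. Hspa1a, at 0.784 (0.691 to 0.888), and Ccl21a, at 1.14 (1.10 to 1.18), lay on the other side of 1 from their ratios of d36 to d22. Gja4, the connexin 37 of arterial cells, stood at 395, 585, 564 and 384 CPM at d0, d15, d22 and d36, so that it was higher in d15 than d0 (1.48) and lower in d36 than d22 (0.682). Only Gm42418, a predicted gene that shares sequence with ribosomal RNA, was called in opposite directions (1.55 and 0.494).

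**Figure D3:**
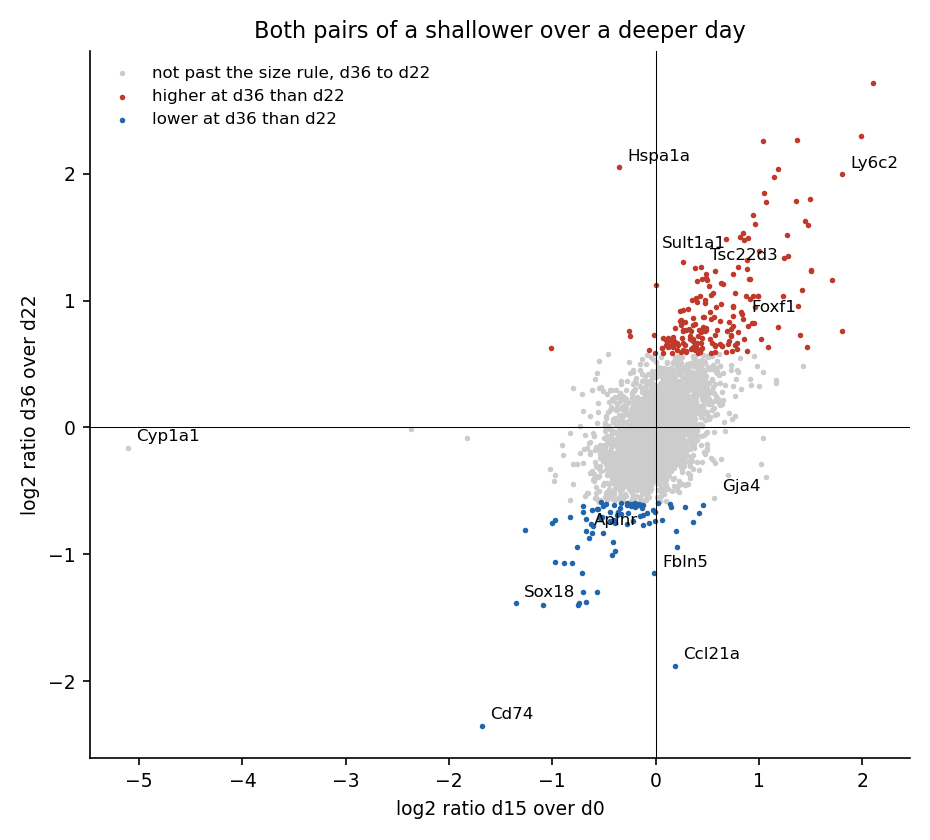
Log2 ratio of d15 to d0 (x axis) against log2 ratio of d36 to d22 (y axis), 1 point per gene measured in both pairs, coloured by the call across the step (red higher, blue lower at d36). Most called genes lie in the quadrant of one sign, 184 of the 191 higher and 72 of the 83 lower, while Hspa1a, Ccl21a, Fbln5 and Gja4 do not share their direction or size.

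To see which cells carried the differences, cells of both days were thinned to 1500 UMIs and clustered without the genes called between the days. Of 12 clusters, 10 held at least 50 cells at each day. A cluster led by Chst1 and Ednrb was aerocyte-like, with 11 of the 12 aerocyte markers raised, and held 17.4% of cells at d22 (16.1 to 18.8) and 16.1% at d36 (14.3 to 18.1). A cluster led by Car8 and Slc6a2 was venous-like, with 4.74% (4.03 to 5.54) and 3.86% (2.93 to 4.98). Several others raised general capillary or arterial markers, and 3 raised no listed marker. They are called by their leading genes, since these names changed with the resolution. Clustered with all UMIs, cells led by Ccl21a and Ptx3 were named lymphatic, 18 at d22 and 5 at d36. At resolution 2, those led by Ccl21a and Fxyd6 were, 33 at d22 and 25 at d36. In the clustering used here no cluster could be named lymphatic. The cluster led by Fendrr and Bmpr2 held 9.55% and 15.8% of cells, and that led by Cyb5r3 and Spop, in which Malat1 was 0.226 of the level in other cells, held 4.15% and 8.13%. These were also the clusters of fewest UMIs, with medians of 5274.5 and 2352 in the first at d22 and d36, and 4244.5 and 2174.5 in the second.

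Within single clusters the same size rule called 8.52% of genes higher and 9.94% lower in the cluster led by Fendrr and Bmpr2, 8.6% and 10.8% in that led by Ifit3 and Ifit1, 10.1% and 7.8% in the aerocyte-like cluster, and 9.19% and 11.3% in that led by Esm1 and Plac8.

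The ratios of Cd74, H2-Aa, H2-Ab1 and H2-Eb1 lay below 1 in each of the 10 clusters. The ratio of Cd74 ran from 0.121 in the cluster led by Fendrr and Bmpr2 (3423 to 415 CPM) to 0.252 in the aerocyte-like cluster. H2-Aa ran from 0.252 to 0.527, H2-Ab1 from 0.333 to 0.783 and H2-Eb1 from 0.252 to 0.738. Aerocyte-like cells held the least Cd74, 166 CPM at d22 and 42.0 CPM at d36, and their H2-Eb1 interval held 1 (0.466 to 1.12). The highest Cd74 level, in the cluster led by the interferon-induced genes Ifit3 and Ifit1, was 5053 CPM at d22 and 1227 at d36. Sox18 was lower in all 10 clusters as well (0.256 to 0.504).

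Klf2 was higher in all 10 clusters (1.48 to 2.44), and so were Foxf1 (1.17 to 2.45), Cdkn1a (1.41 to 4.59), Tsc22d3 (1.74 to 4.26) and Lrg1 (1.11 to 5.06). The aerocyte-like cluster had the smallest ratios of Foxf1 (1.17, 1.11 to 1.23) and Cdkn1a (1.41, 1.32 to 1.5). Among the 10 clusters Lrg1 was most abundant in venous-like cells, at 724 CPM at d22 and 954 CPM at d36 (1.32, 1.15 to 1.51), and closest to level in the cluster led by Wfdc1 and Sox17 (1.11, 0.843 to 1.45). Hspa1a was above 1 in the 6 clusters that held at least 50 of its UMIs, from 2.27 to 19.2, the last from 18 UMIs at d22 against 136 at d36 in the cluster led by Fendrr and Bmpr2.

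Aplnr was lower in 8 of the 10 clusters and above 1, with intervals that held 1, in the aerocyte-like cluster (1.12) and that led by Esm1 and Plac8 (1.16). Within aerocyte-like cells Car4 had 0.792 (0.770 to 0.815), Apln 0.635 (0.564 to 0.713) and Cdkn2b 0.508 (0.448 to 0.575), against 0.643, 0.476 and 0.379 over all cells. A small cluster led by Fabp4 and Lrg1, of 50 cells at d22 and 27 at d36, was outside these 10. This cluster raised the lymphatic markers Ccl21a, Mmrn1 and Flt4, and also Aplnr, Fbln5 and Prss23. The cluster may hold more than 1 type of cell, and its mix at each day was not tested. It held 1026 of the 1510 Fabp4 UMIs at d22 and 384 of the 622 at d36, where 64 others lay in the 128 cells left out of the clustering. Within it Fabp4 had 2445 CPM at d22 and 2849 CPM at d36 (1.17, 1.03 to 1.31), against 1.69 over all cells, and Lrg1 had 767 and 1921 CPM (2.50, 2.12 to 2.96). Elsewhere Fabp4 rested on few UMIs. It had 8.24 (5.27 to 13.1) in the cluster led by Wfdc1 and Sox17, from 31 UMIs at d22 and 62 at d36, and 0.304 (0.171 to 0.504) in venous-like cells, from 253 and 16. With 1 pooled sample a day, no difference between clusters was tested.

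**Figure D4:**
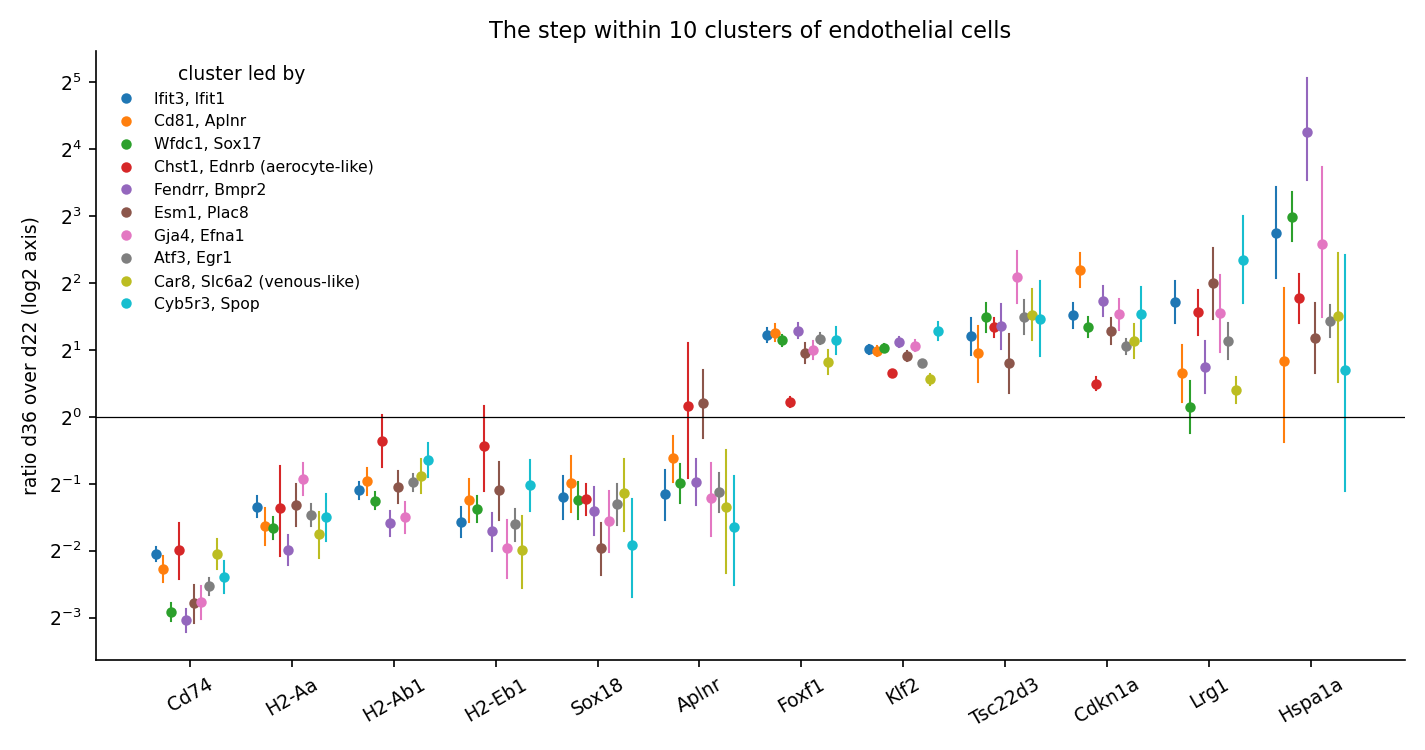
Ratio of d36 to d22 (log2 axis) of 12 genes within the 10 clusters that held at least 50 cells at each day, 1 colour per cluster named by its leading genes, with exact binomial 95% intervals that cover counting error only. Cd74, H2-Aa and Sox18 lie below 1 and Klf2, Foxf1, Tsc22d3 and Cdkn1a above 1 in all 10 clusters, while Aplnr crosses 1 in 2 of them.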

How the data were processed

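The deposited table holds counts, UMIs per gene and cell, unscaled per its values. Cell Ranger 2.1.1 and the build mm10 are named in the submitters' processing notes. Which cells were filtered before deposit is not given in the sources used here. Cells were kept with at least 300 genes, at most 10% mitochondrial UMIs, a pan-endothelial UMI and under 0.5% of UMIs from any list of another cell type. No doublet caller was run, so doublets of endothelial cells remain. UMIs were summed per day and gene, divided by the day's total (CPM), and compared as ratios with exact binomial intervals, levels with exact Poisson and shares with Clopper-Pearson intervals (scipy 1.17.1, numpy 2.4.6, Python 3.11.15). The ratio script was tested on simulated data. List medians used log2 of CPM plus 1. Clustering used scanpy 1.11.5 (2000 variable genes, 30 components, 15 neighbours, Leiden resolution 1, igraph 0.11.9, cells of at least 1500 UMIs, which left out 128 at d36), and TMM factors edgeR 4.0.16 on R 4.3.3. A cluster name needed 3 raised markers and more of its own markers among its 10 leading genes than of any other class, a rule set after the clusters were seen. General capillary and arterial names changed with the resolution and are not used.

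The members, gene lists and rules were chosen with earlier results of these data known. Named were the 12 highest and 12 lowest ratios called with all UMIs and thinned, without predicted, pseudogene, mitochondrial, ribosomal protein and immunoglobulin genes and Xist, the measured list members with the largest ratio in either direction, 22 fixed genes, and list members past the size rule. Members of lists outside this rule, and genes in the counts across days, were named after their values were seen.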

Additional observations from a re-analysis of the deposited data

Results flagged for a closer look

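A pair of genes met the size rule in opposite directions in different clusters of cells, of 107 genes screened over 10 clusters. Hmcn1, a large matrix protein of basement membranes, had a ratio of d36 to d22 of 1.52 in the cluster led by Ifit3 and Ifit1 and of 0.625 in that led by Esm1 and Plac8. Nfkb1, the p50 subunit of NF-κB, had 1.63 in the aerocyte-like cluster led by Chst1 and Ednrb (296 UMIs at d22 and 79 at d36) and 0.460 in that led by Fendrr and Bmpr2 (182 and 33 UMIs). The differences between clusters were not tested, since each day was 1 pooled sample.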

How the results depend on the processing

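Counts of called genes depended most on the filter and the fold. The 210 higher and 89 lower genes became 1578 and 1010 with no filter on low counts, 118 and 38 from 100 CPM on, and 69 and 16 at 2-fold. Thinning to 1000 UMIs gave 223 and 186, so that 54.5% of calls were higher against 70.2% in the main reading, and 59 of the 89 lower genes remained. Within the cluster led by Fendrr and Bmpr2 alone, the only one that met the naming rule for general capillary cells, 198 were higher and 231 lower (46.2% higher), with 77 and 22 in common with the main reading. There Car4 changed direction (1.20, 1.05 to 1.37), and the cause was not tested. This was not particular to that cluster, since Car4 lay above 1 in 7 of the 10 clusters and below 1 in 3. The values of Tmeff2 (1.18, 0.408 to 3.09), Fabp4 (0.878, 0.362 to 1.93) and Neat1 (0.984, 0.768 to 1.25) lay across 1 from the main ones with intervals that held 1. The median of 4 aryl hydrocarbon receptor genes (-0.21) was 0.16 with thinning to 1000 UMIs and 0.96 in that cluster. TMM scaling gave 193 and 112 (63.3% higher), and thinning to 2000 UMIs 229 and 124. In the 11 settings that kept the filter and the fold, 0 of the 210 higher genes were called lower and 0 of the lower higher. No paired analysis was possible because the cell names carry no library number, and leaving out single libraries was not run for the same reason. Depth limits low genes such as Ciita and Fkbp5, whose intervals held 1.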
